A study of Mus musculus with 9 samples.

Results

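Transcription factors that set the fate of activated and exhausted T-cells were measured in T-cells isolated from the bone marrow of 9 mice. The factors were chosen by name, from 8 listed genes: Tox, Eomes, Prdm1, Irf4, Nr4a1, Nr4a2, Nr4a3 and Id2. A probe could be matched to 6 of the 8 genes, among 751 probes matched to a symbol and 785 probes in all, while Nr4a2 and Nr4a3 were not analysed here. The mice were wild-type animals aged 6 to 8 weeks, harvested at day 7, with 3 mice in each of 3 groups. Mice without leukemia received no treatment. Mice with leukemia received 200000 BCR-ABL1+ Arf-/- B-ALL cells that carried luciferase and GFP, a transplanted acute lymphoblastic leukemia of the B lineage (B-ALL). Of these, the vehicle treated mice go by that name in the paper and are listed as untreated in the sample labels, and the rIL-12 treated mice were given recombinant interleukin-12 at 1 µg per dose from day 3. Isolation used a pan-T-cell kit, and the nCounter Immune Exhaustion panel counted color-coded barcodes hybridized to each RNA, without amplification.

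A T-cell that meets antigen briefly and a T-cell that meets it persistently take different paths, and transcription factors hold those paths in place. Antigen receptor signaling first induces Nr4a1, Nr4a2, Nr4a3 and Irf4. With persistent stimulation, Tox sustains the exhausted state with its high coinhibitory receptors, while Eomes, Prdm1 and Id2 take part in the choice between effector, memory and exhausted cells. Several of these genes also work outside T-cells, with Eomes and Id2 in NK cells, Prdm1 and Irf4 in plasma cells, and Nr4a1 in monocytes.

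The mice had total counts of 257613 to 711748, the lowest in vehicle treated mouse 3, and counts were scaled between mice with TMM. A probe for a viral gene absent from mice gave 53 to 114 raw counts, with a mean of 91, as a measure of background. The mean raw count was 64.9 for Eomes and 50.1 for Prdm1, under that level, and 108 for Tox, 105 for Nr4a1 and 113 for Irf4, just above it. Id2, at a mean raw count of 791, was the only factor well above this probe. The viral probe is a single probe, and 252 of all 785 probes had a mean count at or under it. The lowest probe of each mouse gave 5 to 16 counts, so the floor of the assay may lie under the viral probe. Mice of a group were further apart than counting error allows (chi-square per degree of freedom of 5.54 to 60.0 for each pair).

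Of the 6 factors, Eomes and Nr4a1 were called lower in rIL-12 treated mice than in mice without leukemia, and Nr4a1 was also called lower in rIL-12 treated than in vehicle treated mice. A probe was called when edgeR's quasi-likelihood test gave it, after Benjamini-Hochberg adjustment across the 785 probes, an adjusted p under 0.05, and when its change was at least 1.5-fold. None of the 6 was called in vehicle treated mice relative to mice without leukemia. The same isolates held a lower summed level of 8 T-cell markers. The factors are also given relative to these markers, and relative to the median of all probes, after the single factors.

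A promoter window of Nr4a1 is shown because Nr4a1 was the factor called in both comparisons with rIL-12, and that of Eomes because it was the other factor called. Each window is the 250 bases before 1 start that the RefSeq table (GRCm38.p6) lists for the gene, on the plus strand at chr15:101266596-101266845 for Nr4a1 and at chr9:118477939-118478188 for Eomes. RefSeq places the Nr4a1 gene at 101253902 to 101274795, so its window lies inside the span of the gene, upstream of 1 of its starts. Capitals mark TGCGTCA, an AP-1-like motif that was picked after this window had been read.

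Nr4a1: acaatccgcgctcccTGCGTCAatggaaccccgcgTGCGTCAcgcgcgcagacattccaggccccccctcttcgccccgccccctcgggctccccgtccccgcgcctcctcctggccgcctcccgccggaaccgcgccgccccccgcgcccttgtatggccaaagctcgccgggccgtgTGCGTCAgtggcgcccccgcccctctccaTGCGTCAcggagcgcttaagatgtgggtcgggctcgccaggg
Eomes: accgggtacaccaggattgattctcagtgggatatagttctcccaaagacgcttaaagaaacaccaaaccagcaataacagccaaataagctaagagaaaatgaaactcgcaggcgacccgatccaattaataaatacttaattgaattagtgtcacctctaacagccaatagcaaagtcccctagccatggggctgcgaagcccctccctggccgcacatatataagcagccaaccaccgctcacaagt

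TGCGTCA, searched on both strands, stood 4 times in the Nr4a1 window. Of 32851 RefSeq windows of this length, 574 (1.75%) held it at least once and 1 (0.00304%), the Nr4a1 window itself, held it 4 times. Since the motif was picked from that window, this share is no test of it. The windows of Eomes, Prdm1, Irf4, Id2, Nr4a2 and Nr4a3 held it 0 times, and Tox was not in the table of windows. The cyclic AMP response element TGACGTCA, in 1.55% of all windows, and the STAT motif TTCNNNGAA, in 7.02%, had no match in any of these 7 windows on either strand. These are matches of letters only, in a window that the panel did not assay.

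**Figure D1:**
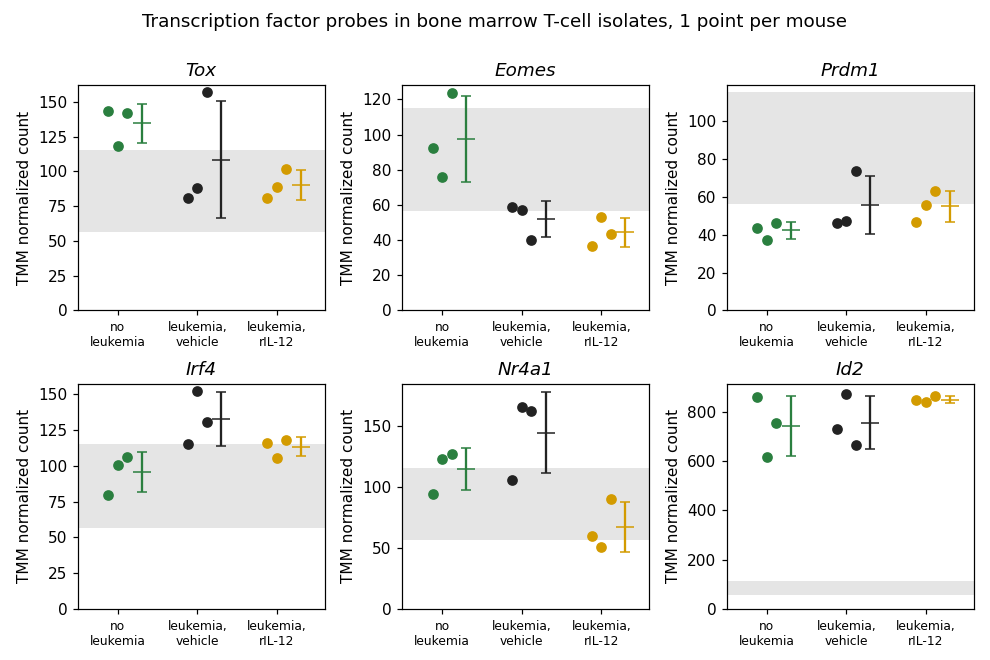
TMM normalized counts of 6 transcription factor probes (vertical axes, from 0) in T-cell isolates of 3 groups of 3 mice, 1 point per mouse, with the mean and SD beside the points. The grey band is the range of the viral background probe over all 9 mice, and the 3 rIL-12 treated mice lie below all other mice for Nr4a1.

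Nr4a1 (NM_010444.1, position 1315 of the transcript), also known as Nur77, is an orphan nuclear receptor induced within hours of antigen receptor signaling, and it restrains T-cell effector genes. Its normalized counts were 94.5, 122 and 127 without leukemia, 106, 165 and 162 with vehicle, and 59.8, 50.8 and 90.0 with rIL-12. Every rIL-12 treated mouse lay below every mouse of both other groups, which overlapped with each other. The group means were 114 ± 17.5, 144 ± 33.4 and 66.8 ± 20.6 (SD, n = 3 mice each). Nr4a1 was lower with rIL-12 than with vehicle by a log2 fold change of -1.11 (SE 0.25, edgeR adjusted p = 0.0155), or 2.15-fold. It was lower with rIL-12 than without leukemia by -0.78 (SE 0.25, edgeR adjusted p = 0.0456), or 1.72-fold. The higher groups, vehicle and no leukemia, were not shown to differ, at a log2 fold change of 0.33 (SE 0.24, edgeR adjusted p = 0.635).

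The call of Nr4a1 against vehicle was lost without vehicle treated mouse 2 or 3 or rIL-12 treated mouse 2, with the log2 fold change between -1.37 and -0.94 over the 9 mice left out in turn. Against no leukemia it was lost without any mouse except vehicle treated mouse 1 and rIL-12 treated mouse 3, with a log2 fold change between -1.04 and -0.61. In rIL-12 treated mice the raw counts were 63 to 87, inside the range of the viral probe, and no background was subtracted. The viral probe itself had normalized counts of 92.9, 102 and 110 with vehicle and 83.2, 84.6 and 90.0 with rIL-12, groups that did not overlap, with a log2 fold change of -0.24 (SE 0.23, edgeR adjusted p = 0.505).

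Eomes (NM_010136.3, position 2097), a T-box factor of cytotoxic, memory and exhausted T-cells, fell in rIL-12 treated mice. Its normalized counts were 92.3, 75.9 and 124 without leukemia, 58.5, 57.2 and 40.1 with vehicle, and 36.4, 53.2 and 43.5 with rIL-12. Mice with leukemia of both kinds lay below every mouse without leukemia, and they overlapped with each other. The means were 97.3 ± 24.3, 52.0 ± 10.3 and 44.3 ± 8.43 (SD, n = 3 each). The log2 fold change was -1.12 (SE 0.24, edgeR adjusted p = 0.00629) with rIL-12 against no leukemia, or 2.17-fold. With vehicle it was -0.87 (SE 0.24, edgeR adjusted p = 0.0913), short of the threshold. Between rIL-12 and vehicle it was -0.24 (SE 0.25, edgeR adjusted p = 0.526), so that the size of the loss was not shown to differ between the treatments.

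Eomes lost its call with rIL-12 when mouse 3 of the mice without leukemia, the highest, was left out (log2 fold change -0.86, adjusted p = 0.0514). With vehicle it gained a call with DESeq2 (log2 fold change -0.93, adjusted p = 0.0197) and in a model of only these 2 groups (-0.87, adjusted p = 0.0390). Raw counts of Eomes were 24 to 66 in the 6 mice with leukemia, against 53 to 114 for the viral probe in all mice.

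Tox (NM_145711.4, position 1580), an HMG-box factor that sustains exhaustion, was not called in any comparison. Its normalized counts were 143, 118 and 142 without leukemia, 80.7, 87.7 and 157 with vehicle, and 80.6, 88.6 and 101 with rIL-12. Vehicle treated mouse 3, the mouse of lowest depth, had the highest value of all 9 mice, and the other two of its group lay among the rIL-12 treated mice. The rIL-12 treated mice did not overlap with the mice without leukemia, at a log2 fold change of -0.57 (SE 0.24, edgeR adjusted p = 0.110). The log2 fold change was -0.34 (SE 0.24, adjusted p = 0.618) with vehicle, and -0.67 without vehicle treated mouse 3. Between rIL-12 and vehicle it was -0.24 (SE 0.24, adjusted p = 0.522), and it turned to 0.094 without that mouse.

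Irf4 (NM_013674.1, position 635), which grows with the strength of antigen receptor signaling and drives effector expansion, was not called either. Its normalized counts were 79.6, 100.1 and 106 without leukemia, 115, 152 and 130 with vehicle, and 116, 106 and 118 with rIL-12. The vehicle treated mice all lay above the mice without leukemia, and the rIL-12 treated mice overlapped with both. The log2 fold changes were 0.47 with vehicle (SE 0.18, edgeR adjusted p = 0.223), 0.24 with rIL-12 (SE 0.18, adjusted p = 0.417) and -0.23 between rIL-12 and vehicle (SE 0.18, adjusted p = 0.414). Under scaling to 12 housekeeping genes the last became -0.64 and was called (adjusted p = 0.0421), with the median of all probes at -0.49.

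Prdm1 (NM_007548.3, position 1440) encodes Blimp-1, a repressor of memory genes in terminally differentiated T-cells. Its normalized counts were 43.5, 37.4 and 46.4 without leukemia, 46.4, 47.1 and 73.5 with vehicle, and 46.8, 55.6 and 63.1 with rIL-12. Both groups with leukemia lay above the mice without leukemia, but by less than 1 normalized count at the nearest pair (46.393 against 46.4285 with vehicle and 46.7764 with rIL-12). The log2 fold changes were 0.35 (SE 0.24, edgeR adjusted p = 0.600) with vehicle, 0.37 (SE 0.23, adjusted p = 0.310) with rIL-12 and 0.015 (SE 0.22, adjusted p = 0.975) between the treatments. Raw counts were 37 to 69 over all mice, so all lay in or under the range of the viral probe.

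Id2 (NM_010496.3, position 354), an inhibitor of E protein transcription factors that favors effector T-cells and is required for NK cells, was the best measured of the factors. Its normalized counts were 858, 615 and 756 without leukemia, 731, 873 and 665 with vehicle, and 845, 839 and 864 with rIL-12. The rIL-12 treated mice were close to each other, with a mean of 849 ± 13.1 (SD, n = 3), and overlapped with both other groups. The other means were 743 ± 122 without leukemia and 756 ± 106 with vehicle. The log2 fold changes were 0.027 (SE 0.17, edgeR adjusted p = 0.965) with vehicle, 0.19 (SE 0.16, adjusted p = 0.487) with rIL-12 and 0.17 (SE 0.16, adjusted p = 0.514) between the treatments.

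**Figure D2:**
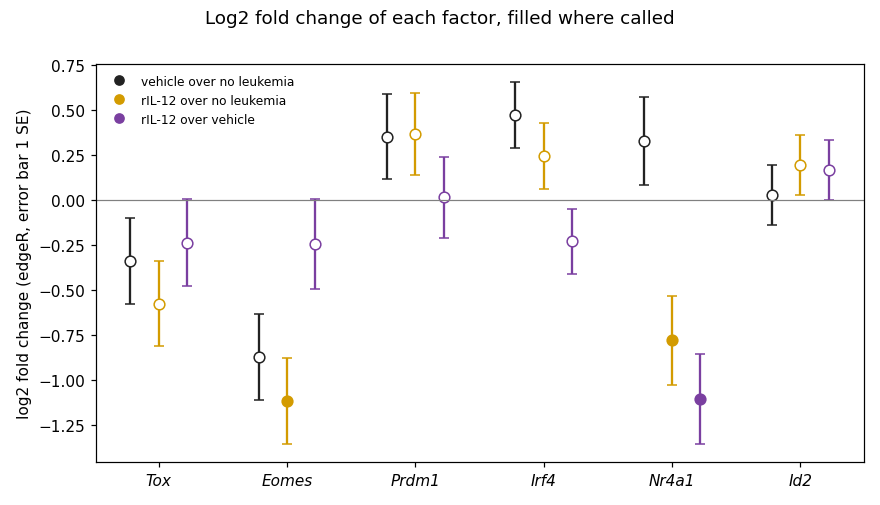
Log2 fold change of each factor from edgeR (vertical axis) in 3 comparisons between groups of 3 mice, with bars of 1 SE and filled points where the factor was called. The filled points are Eomes at -1.12 and Nr4a1 at -0.78 with rIL-12 against no leukemia, and Nr4a1 at -1.11 with rIL-12 against vehicle.

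Set against the panel, none of the factors was called with leukemia alone. In vehicle treated mice 0 of 6 factors were called, where 2.68% of all probes were called, 1.27% higher and 1.4% lower. Eomes and Irf4 had an unadjusted edgeR p under 0.05, as did 119 of all 785 probes. The values of the groups did not overlap for Eomes, Prdm1 and Irf4, 3 of 6 factors, against 22.5% of all probes. The median log2 fold change was 0.18 over the 6 factors and 0.049 over all probes.

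With rIL-12 against no leukemia, 2 of 6 factors were called, both lower, where 17.6% of all probes were called, 8.92% higher and 8.66% lower. Groups did not overlap for Tox, Eomes, Prdm1 and Nr4a1, 4 of 6 factors, against 35.5% of all probes. The median was -0.19 over the factors and 0.024 over all probes. This comparison and that of vehicle treated mice share the mice without leukemia, so their values are not independent.

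With rIL-12 against vehicle, 1 of 6 factors was called, where 13.8% of all probes were called, 8.54% higher and 5.22% lower. Groups did not overlap for Nr4a1 alone, 1 of 6 factors, against 30.7% of all probes. The median was -0.23 over the factors and -0.084 over all probes. For each factor whose groups did not overlap, the exact two-sided permutation test gave p = 0.1, the smallest that 3 mice against 3 allow.

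The isolates held lower counts of T-cell markers, taken as a set, in mice with leukemia, and the lowest with rIL-12. Summed over 8 markers of T-cells (Cd3d, Cd3e, Cd3g, Cd5, Cd6, Cd28, Lck and Zap70), normalized counts in rising order were 4916, 6560 and 8036 without leukemia, 3384, 4601 and 4781 with vehicle, and 1686, 2388 and 3346 with rIL-12. The 3 groups did not overlap, and all 8 markers were called lower with rIL-12 than without leukemia. Their median log2 fold change was -1.37 there. With vehicle the median was -0.66, with 7 of 8 markers fitted lower, Zap70 at 0.040 and 0 of 8 called. Between rIL-12 and vehicle it was -0.84, and 2 of 8 were called. In such bulk isolates a smaller share of T-cells and less RNA of these markers per T-cell cannot be told apart. No marker of any list was at 0 in any group.

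The CD8 coreceptor genes Cd8a and Cd8b1 summed to 1354 to 2629 normalized counts without leukemia, 221 to 950.0 with vehicle and 198 to 320 with rIL-12. The CD4 coreceptor gene Cd4 had 107 to 208 without leukemia, 201 to 369 with vehicle and 84.9 to 201 with rIL-12. Its log2 fold changes were 0.83 with vehicle and -0.015 with rIL-12 against no leukemia, and -0.85 between rIL-12 and vehicle, none called. Markers of NK cells (5 genes) summed to 2689 to 3170 without leukemia, 2222 to 3164 with vehicle and 2632 to 3941 with rIL-12. Of these, Klrk1 was called higher and Klrd1 lower with rIL-12 than without leukemia. Markers of myeloid cells (4 genes) summed to 1717 to 1802, 1868 to 2289 and 1733 to 2540, and those of B-cells or B-ALL (7 genes) to 578 to 728, 692 to 936 and 697 to 715, in the same order. The only plasma cell marker with a probe, Tnfrsf17, had 145 to 164, 151 to 247 and 156 to 178. Markers of mast cells or basophils (3 genes) summed to 961 to 1096, 1800 to 2116 and 1858 to 2125, and those of plasmacytoid dendritic cells (3 genes) to 786 to 909, 609 to 783 and 959 to 1569. The part of these cells in the values of the factors was not tested.

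**Figure D3:**
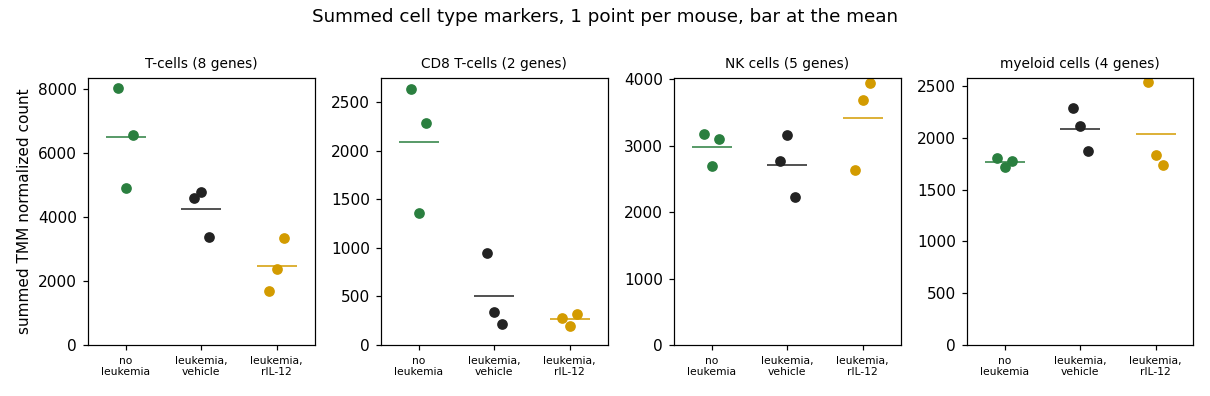
Summed TMM normalized counts of cell type markers (vertical axes, from 0) in 3 groups of 3 mice, 1 point per mouse, with a line at the mean. T-cell markers stand at 4916 to 8036 without leukemia, 3384 to 4781 with vehicle and 1686 to 3346 with rIL-12, while NK cell markers overlap between all groups and myeloid markers overlap between rIL-12 and both other groups.

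Scaling to the geometric mean of the 8 T-cell markers, chosen after seeing the data, moved the panel as a whole, to a median log2 fold change over all probes of 0.58 with vehicle and 1.38 with rIL-12 against no leukemia, and 0.74 with rIL-12 against vehicle. This scaling takes the RNA of these markers per T-cell as equal between groups, which was not tested. On this scale Eomes stood at 51.5, 67.4 and 83.7 scaled counts without leukemia, 54.5, 52.3 and 49.4 with vehicle, and 91.3, 95.7 and 53.7 with rIL-12. Each group of mice then overlapped with the other two, that of vehicle and rIL-12 only through the rIL-12 treated mouse at 53.7. The log2 fold change of Eomes with rIL-12 against no leukemia turned from -1.12 to 0.24 (adjusted p = 0.601), which was -1.14 relative to the median of all probes. Nr4a1 stood at 52.7, 109 and 85.7 without leukemia, 98.7, 151 and 200 with vehicle, and 150, 91.3 and 111 with rIL-12. Its log2 fold change with rIL-12 turned from -0.78 to 0.51 against no leukemia (adjusted p = 0.243) and went from -1.11 to -0.34 against vehicle (adjusted p = 0.506). Relative to the median of all probes these were -0.87 and -1.08.

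With this scaling 86.5% of all probes were called higher with rIL-12 than without leukemia, and so were 3 of 6 factors, Prdm1, Irf4 and Id2, at log2 fold changes of 1.70, 1.59 and 1.61. Id2 stood at 478, 547 and 511 scaled counts without leukemia, 681, 797 and 819 with vehicle and 2122, 1509 and 1067 with rIL-12, and the 3 groups did not overlap. Against no leukemia, its log2 fold change with vehicle was 0.58 (adjusted p = 0.268). Its log2 fold change between rIL-12 and vehicle was 1.03 (edgeR adjusted p = 0.0147), and it was 1 of 6 factors called higher there, against 35% of all probes.

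Relative to the median of all probes, a factor kept nearly the same value under TMM, DESeq2 size factors, total counts, housekeeping genes and T-cell markers. Each scaling multiplies all probes of a mouse by the same number, so this likeness is built in and is no test of the differences. For Nr4a1 it was -1.08 to -1.01 between rIL-12 and vehicle and -0.87 to -0.78 between rIL-12 and no leukemia. For Eomes it was -1.15 to -1.14 with rIL-12 and -0.95 to -0.92 with vehicle, both against no leukemia. Tox lay at -0.60 to -0.59 with rIL-12 against no leukemia. Irf4 lay at 0.40 to 0.43 with vehicle, and Prdm1 at 0.30 to 0.36. Id2 lay at -0.029 to 0.0021 with vehicle, at the median of the panel.

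**Figure D4:**
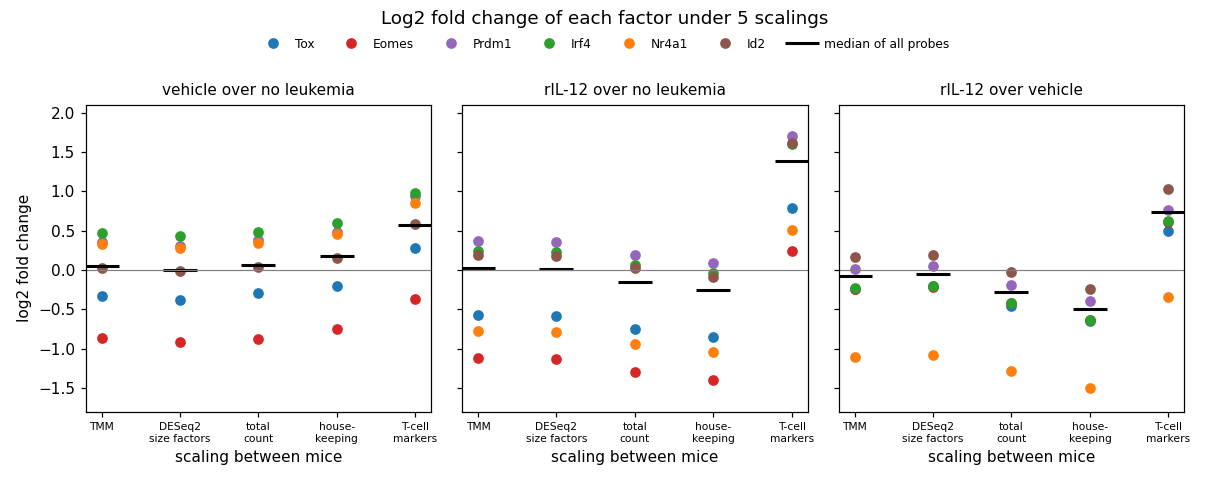
Log2 fold change of each factor (points) and the median of all 785 probes (black bars) in 3 comparisons under 5 ways of scaling counts between mice. With T-cell marker scaling the median of all probes moves to 0.58, 1.38 and 0.74, and the factors move with it because a scaling shifts all probes alike. Eomes and Nr4a1 therefore stay below the bar with rIL-12 against no leukemia.

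Related genes were counted from 5 lists. Of 14 other T-cell fate factors with a probe, Lef1 (log2 fold change -1.45), Klf2 (-1.43) and Foxo1 (-1.09), which keep naive and memory T-cells quiescent, were called lower with vehicle than without leukemia, and none higher. Against no leukemia, rIL-12 treated mice had 4 called lower, Lef1 (-2.07), Klf2 (-1.89), Foxo1 (-1.55) and Foxp3 (-1.45), the factor of regulatory T-cells. Foxp3 was also the only one called between rIL-12 and vehicle (-1.36). The list medians were -0.13, -0.16 and -0.32 in the comparisons of vehicle with no leukemia, rIL-12 with no leukemia and rIL-12 with vehicle, and on the scale of T-cell markers they were 0.41, 1.19 and 0.52, below the medians of all probes of 0.58, 1.38 and 0.74.

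Nr4a1 belongs to the factors that antigen receptor signaling induces or activates, and 8 others on that list had a probe. None was called with vehicle. With rIL-12 against no leukemia Fos (-0.85), Junb (-0.60) and Jund (-0.90), subunits of AP-1, and Nfatc2 (-0.79), a calcium responsive factor, were called lower and none higher. These calls were lost in 4, 7, 5 and 4 of the 9 fits with a mouse left out, in that order. Fos and Junb also lost theirs with a replicate block. Between rIL-12 and vehicle Junb was called lower (-0.82) and Nfatc3 higher (1.17). The list medians were -0.15, -0.53 and -0.44 in the order given for the fate factors, and 0.32, 0.81 and 0.39 on the scale of T-cell markers.

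Of 8 exhaustion receptors placed downstream of Tox and the Nr4a factors, Pdcd1 (1.58), Lag3 (2.07) and Tigit (1.57) were called higher with vehicle than without leukemia. In rIL-12 treated mice Havcr2 (0.85), Tigit (1.11) and Entpd1 (0.67) were called higher than without leukemia, calls that each gene lost under housekeeping scaling (0.55, 0.84 and 0.38) and under total count scaling (0.66, 0.94 and 0.48). Pdcd1, which encodes PD-1, was called lower with rIL-12 than with vehicle (-1.13). The list medians were 0.78, 0.56 and -0.42, and the last was 0.38 on the scale of T-cell markers.

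Effector genes placed downstream of Eomes, Prdm1 and Id2 numbered 8 with a probe, of which 0 were called with vehicle. With rIL-12 against no leukemia Ifng, the gene of interferon gamma, was called higher (1.39) and Prf1, the gene of the pore-forming protein perforin, lower (-0.90). Gzmb, which encodes granzyme B, was called lower with rIL-12 than with vehicle (-0.84). The list median with rIL-12 against no leukemia was 0.16, and it was -0.12 under housekeeping scaling and -0.014 under total count scaling, and 1.48 on the scale of T-cell markers. Between rIL-12 and vehicle it was 0.016, and -0.39, -0.17 and 0.77 under these scalings.

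Among 6 memory genes that Prdm1 and Id2 restrain, those of lymph node homing and of survival were lower. Ccr7 (-1.91) and S1pr1 (-1.05) were called lower with vehicle. In rIL-12 treated mice Il7r (-2.44), Ccr7 (-2.97) and S1pr1 (-2.15) were called lower than without leukemia. Il7r (-1.70) and S1pr1 (-1.11) were also called lower with rIL-12 than with vehicle. The list medians were -0.53, -1.37 and -0.67, and on the scale of T-cell markers 0.021, 0.0034 and 0.17.

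The list calls with vehicle against no leukemia were each lost when mouse 1 or 3 without leukemia, or vehicle treated mouse 2 or 3, was left out, and under housekeeping scaling. Without these mice 0, 0, 2 and 0 of all 785 probes were called, and under housekeeping scaling 3, so the loss was that of the whole panel. The log2 fold changes kept their direction whichever mouse was left out, with -1.78 to -1.30 for Lef1 and 1.72 to 2.34 for Lag3. Those between rIL-12 and vehicle were each lost without vehicle treated mouse 2 or 3 or rIL-12 treated mouse 2, where 0, 4 and 0 of all probes were called, with S1pr1 at -1.26 to -0.90. With rIL-12 against no leukemia, Lef1, Klf2, Foxo1, Il7r, Ccr7, S1pr1 and Prf1 kept their calls whichever mouse was left out. The other list genes called there lost theirs in 1 (Foxp3) to 7 (Junb) of the 9 fits with a mouse left out.

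The pattern of each factor over the 9 mice was also set against all other probes with a symbol, by Pearson's r of log2 normalized counts, as a description of the highest values over the panel. Nr4a1 was most like Cpt1c (r = 0.97) and Itgax (0.93), and Eomes most like Cd226 (0.93) and Klf2 (0.93). Tox was most like Tnfrsf10b (0.92) and Eya4 (0.90), Prdm1 like H2-Q2 (0.91) and Il1r2 (0.88), Irf4 like Slc2a6 (0.89) and Wnt6 (0.87), and Id2 like Il7 (0.80) and Itpr1 (0.79). After group means were removed, r was 0.96 for Nr4a1 with Cpt1c, 0.94 for Tox with Tnfrsf10b and 0.62 for Eomes with Klf2. Between the factors r ranged from -0.59 for Eomes with Prdm1 to 0.49 for Tox with Nr4a1. The mice share depth, scaling and group, which enter each r. Some of these probes had low raw counts, 43 to 76 for Cpt1c, 17 to 31 for Eya4, 25 to 45 for H2-Q2 and 22 to 74 for Il7. Those lay under the mean of 91 of the viral probe, while Cd226 (106 to 554) and Itpr1 (540 to 1642) lay above it.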

How the data were processed

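RNA of 9 T-cell isolates was measured with the nCounter Immune Exhaustion panel. The values that the authors deposited are whole-number counts of barcodes for each probe in each mouse, before the nSolver normalization of their methods, and all columns were used. Probes were named through the transcripts of a RefSeq table, for 751 of 785 probes. After TMM scaling, the counts were fitted with edgeR 4.0.16 in R 4.3.3 (quasi-likelihood test, 9 mice, 3 groups, no block, prior count 1), with Benjamini-Hochberg adjustment over all probes. A call needed an adjusted p under 0.05 and a 1.5-fold change. Exact permutation tests, two-sided, were run on each factor. The model was tested on simulated data. Deviations from group means of same-numbered mice without leukemia and with vehicle correlated at 0.26, 0.11 and 0.13. Differently numbered mice of these groups correlated at -0.26 to 0.13. With 3 mice a group this does not settle whether the replicate numbers of the titles pair the mice, and the block changed no call of a factor. All 8 factors were to be named, with the 2 probes most like each and the called genes of the lists. The factors, lists and tests were chosen with earlier results of these data known. Alternatives were a replicate block, DESeq2 size factors, housekeeping and total count scaling, a filter on a mean count of 20, only the 2 groups compared, DESeq2 1.42.0, the methods' t-test on log2(normalized count + 1), no fold threshold and leaving out each mouse. T-cell marker scaling and a filter on probes at or under the viral probe were added after seeing the data.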

Additional observations from a re-analysis of the deposited data

Results flagged for a closer look

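Nr4a1 differed between rIL-12 treated and vehicle treated mice with leukemia. Its log2 fold change against mice without leukemia was 0.33 in vehicle treated and -0.78 in rIL-12 treated mice, a difference of -1.11 by edgeR's quasi-likelihood test (SE 0.25, adjusted p = 0.0155), and all 3 rIL-12 treated mice lay below all 3 vehicle treated mice. Over the other ways of scaling, filtering and testing, with all mice and without the T-cell marker scaling, the difference was between -1.50 and -1.04, with adjusted p between 0.0012 and 0.272. T-cell markers were lower with rIL-12 by a median log2 fold change of -0.84, and scaled to them the difference was -0.34 (adjusted p = 0.506), or -1.08 relative to the median of all probes. The part of the T-cell transcripts in it was not tested. No mice received rIL-12 without leukemia, so an effect of rIL-12 alone and a changed response to leukemia cannot be told apart.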

How the results depend on the processing

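The number of factors called was 0 with vehicle against no leukemia, 2 with rIL-12 against no leukemia and 1 with rIL-12 against vehicle. Of all 785 probes, 21, 138 and 108 were called. In a model of only the 2 groups compared, the number of factors was 1, 1 and 0, and 63, 114 and 27 of all probes were called. With DESeq2 it was 1 in the first, where 50 of all probes were called. With the methods' t-test it was 0 in each, and that test called 0 of 785 probes, with 102, 190 and 139 at an unadjusted p under 0.05. Under housekeeping scaling it was 2 in the third, where 235 of all probes were called. With the filter on the viral probe, which removed Eomes and Prdm1, it was 1 in the second, where 123 of 533 probes were called. Leaving out a mouse gave 0 to 2 in the second, with 66 to 194 of all probes called, and 0 to 1 in the third, with 0 to 199. With the replicate numbers as a block it stayed at 0, 2 and 1. In the comparisons of rIL-12 with no leukemia and with vehicle, same-numbered mice correlated at -0.19 to 0.0066 and at 0.018 to 0.33. Differently numbered mice correlated at -0.12 to 0.23 and at -0.40 to 0.23, so these values did not settle whether the numbers pair those mice.

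Some differences changed sign. Housekeeping scaling gave -0.043 for Irf4 and -0.087 for Id2 with rIL-12 against no leukemia, and -0.39 for Prdm1 and -0.24 for Id2 against vehicle, where total count scaling gave -0.19 and -0.021. With vehicle against no leukemia, Id2 was -0.017 with DESeq2 size factors, -0.016 with DESeq2, and -0.092 to 0.11 with a mouse left out. Between rIL-12 and vehicle, leaving out a mouse gave -0.13 to 0.23 for Prdm1 and -0.41 to 0.094 for Tox. T-cell marker scaling, with medians of all probes at 0.58, 1.38 and 0.74, turned Tox to 0.28 with vehicle, Tox to 0.78, Eomes to 0.24 and Nr4a1 to 0.51 with rIL-12 against no leukemia, and Tox to 0.50, Eomes to 0.60 and Irf4 to 0.62 against vehicle. The medians of the factors became 1.19 and 0.61 in these 2 comparisons. The cause was not tested.

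Precision was limited by 3 mice a group and by signals near the viral probe for every factor except Id2. Background was not subtracted. Leaving out mice 2 and 3 of the vehicle group and mouse 2 of the rIL-12 group, 1 at a time, ended the call of Nr4a1 against vehicle, where 0, 4 and 0 of all probes were called.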
